A study of Mus musculus with 9 samples.

Results

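The set comprised 10 mouse germline genes whose promoters are known to be held silent by DNA methylation in somatic cells: Dazl, Mael, Stk31, Sycp3, Stra8, Tex15, Taf7l, Hormad1, Slc25a31 and Rpl10l. Each symbol matched 1 Ensembl identifier, so the set was 10 of the 52550 genes in the count table. Transcripts were counted in 9 libraries of V6.5 mouse embryonic stem cells (ESCs), a hybrid line. Of these, 5 were labelled as double knockouts of KLF2 and KLF4 (DKO) and 4 as wild type (WT). The medium was the same for both groups: Knockout DMEM with 15% FBS and LIF, plus the GSK and MEK inhibitors known as 2i. The labels do not say how the genes were deleted, whether the DKO cells were 1 clone, or whether replicates came from separate cultures, so a p-value measures no more than how these libraries differ among themselves, part of which may be technical. DNA methylation itself was not measured here, and the word "methylation-sensitive" rests on background knowledge of these genes.

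Germline genes of this kind carry promoters with many CpG dinucleotides, which are methylated around implantation and stay silent in the tissues of the body. In ESCs they are also bound by PRC1.6, a Polycomb complex that reads DNA through MGA with MAX at E-box sequences and through E2F6 with a DP partner at E2F sequences. ESCs grown with LIF and both inhibitors have low genomic methylation, and low levels of germline transcripts are common in them. In germ cells the proteins act in RNA control, transposon silencing and meiosis.

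Promoter windows from RefSeq (build GRCm38.p6), reaching 250 bases before to 50 after the start of transcription, were held for 9 of the genes, and Tex15 had no entry. Both strands were searched for the E-box CACGTG, which reads the same on either strand, and for the E2F sequence TCCCGC. Those of 6 genes are shown from 250 bases before to 30 after the start, because they set the 5 genes with the largest falls beside Mael, whose promoter held both sequences but whose transcript was at the limit of detection. Slc25a31, not shown, also held both sequences and was likewise too low for the main test. Capitals mark the E-box and the E2F sequence (TCCCGC, or GCGGGA for the other strand), and Stra8 had neither:
Stra8 (chr6:34920698-34920977, plus strand): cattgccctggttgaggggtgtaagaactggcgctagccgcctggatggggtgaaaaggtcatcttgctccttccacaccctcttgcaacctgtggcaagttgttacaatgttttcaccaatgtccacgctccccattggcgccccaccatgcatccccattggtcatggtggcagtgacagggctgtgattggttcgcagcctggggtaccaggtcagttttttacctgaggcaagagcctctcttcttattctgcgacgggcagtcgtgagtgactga
Hormad1 (chr3:95559427-95559706, plus strand): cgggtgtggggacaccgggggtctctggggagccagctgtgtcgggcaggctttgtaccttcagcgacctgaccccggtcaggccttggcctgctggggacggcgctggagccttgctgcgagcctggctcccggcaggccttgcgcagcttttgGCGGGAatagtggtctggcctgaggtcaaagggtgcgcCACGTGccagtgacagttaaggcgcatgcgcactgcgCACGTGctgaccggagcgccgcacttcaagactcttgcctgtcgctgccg
Rpl10l (chr12:66284372-66284651, minus strand): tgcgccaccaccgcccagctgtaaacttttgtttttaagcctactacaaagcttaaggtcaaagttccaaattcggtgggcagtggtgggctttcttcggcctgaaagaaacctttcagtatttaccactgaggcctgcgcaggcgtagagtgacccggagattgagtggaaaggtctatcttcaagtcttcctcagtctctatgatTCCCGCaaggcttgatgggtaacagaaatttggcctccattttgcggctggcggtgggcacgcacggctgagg
Stk31 (chr6:49395354-49395633, plus strand): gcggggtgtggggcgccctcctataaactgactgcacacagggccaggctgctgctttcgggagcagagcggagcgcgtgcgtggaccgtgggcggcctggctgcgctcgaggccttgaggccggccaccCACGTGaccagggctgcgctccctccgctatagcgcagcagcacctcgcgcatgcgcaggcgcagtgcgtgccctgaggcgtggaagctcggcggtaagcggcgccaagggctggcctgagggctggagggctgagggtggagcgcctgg
Sycp3 (chr10:88459337-88459616, plus strand): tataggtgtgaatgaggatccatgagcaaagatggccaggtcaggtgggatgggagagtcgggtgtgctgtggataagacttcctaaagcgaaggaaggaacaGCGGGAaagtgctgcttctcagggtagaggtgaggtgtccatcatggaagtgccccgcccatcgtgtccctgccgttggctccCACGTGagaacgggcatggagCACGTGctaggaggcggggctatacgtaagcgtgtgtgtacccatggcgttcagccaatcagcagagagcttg
Mael (chr1:166238715-166238994, minus strand): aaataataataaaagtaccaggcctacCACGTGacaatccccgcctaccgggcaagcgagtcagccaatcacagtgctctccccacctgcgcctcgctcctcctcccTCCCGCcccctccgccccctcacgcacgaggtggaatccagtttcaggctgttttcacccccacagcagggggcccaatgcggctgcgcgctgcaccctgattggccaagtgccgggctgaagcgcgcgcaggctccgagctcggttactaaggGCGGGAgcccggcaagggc

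The E-box was present in the windows of Mael, Stk31, Sycp3, Taf7l, Hormad1 and Slc25a31, or 6 of 9, against 7.15% of all 32851 windows and 10.9% of the 14281 windows with at least 10 CpG. The E2F sequence was present in 5 of 9 (Mael, Sycp3, Hormad1, Slc25a31 and Rpl10l), against 20% of all windows and 40.3% of those with at least 10 CpG. Mael, Sycp3, Hormad1 and Slc25a31 held both, as did 1.99% of all windows. That share was not taken for windows with at least 10 CpG, where each sequence alone was more common. Sycp3 and Hormad1 each had 2 E-boxes. The sequence CCACCC, of the kind that KLF factors bind, was found in Stk31 alone, where 1 of its matches shares a base with the E-box. It was present in 31.5% of all windows and 38.1% of those with at least 10 CpG. These matches describe the windows only, since binding was not measured.

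CpG dinucleotides numbered 28 in the windows of Dazl and Stk31, 24 in Mael and Hormad1, 22 in Slc25a31, 17 in Taf7l, 15 in Sycp3, 13 in Rpl10l and 10 in Stra8. The median over all windows was 7. Stra8 had the lowest ratio of observed to expected CpG of the 9, at 0.43, and its RefSeq start lies 785 bases from the GENCODE gene start.

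**Figure D1:**
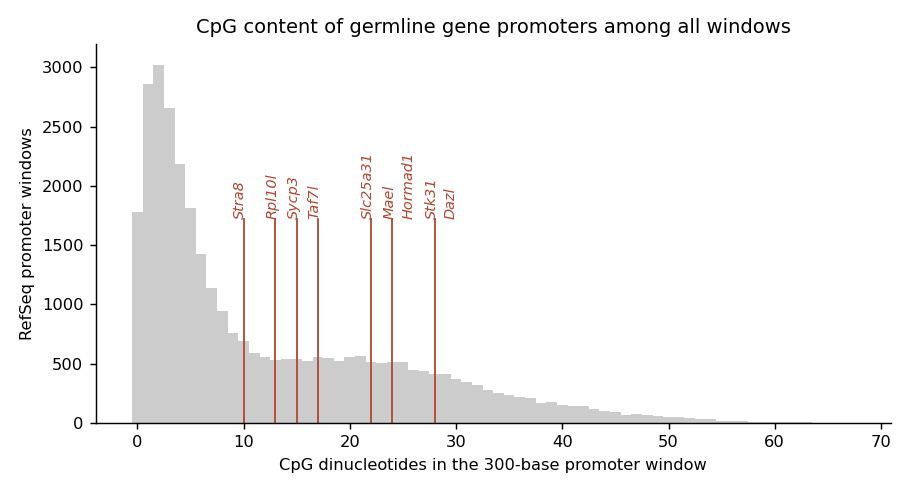
Number of CpG dinucleotides per 300-base RefSeq promoter window (x axis) against the number of windows (y axis), with the 9 germline genes marked. All 9 lie above the median of 7, from 10 in Stra8 to 28 in Dazl and Stk31.

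Library totals ran from 6035642 to 6617834 counts in libraries labelled DKO and from 6557408 to 7098530 in WT, and 3 counts corresponded to 0.426 to 0.506 CPM, the reads of a gene scaled to a common library size. Klf2 had 3970, 3822, 3750, 3750 and 4044 counts in the libraries labelled DKO 1 to 5, against 3042, 3064, 3048 and 3297 in WT 1 to 4. Klf4 had 9385, 10210, 10778, 9937 and 9722 counts in the libraries labelled DKO, against 5860, 5085, 5873 and 6183 in WT. Both genes named by the knockout were thus higher in every library labelled DKO (log2 fold change 0.42 and 0.91, edgeR adjusted p = 6.2e-10 and 8.6e-14). This goes against the label, but the deleted part of either gene is not given, and reads of the 3' end would check nothing if it lay elsewhere. Every direction is therefore that of libraries labelled DKO over those labelled WT. Pluripotency markers summed to 1459.9 to 1551 CPM in libraries labelled DKO and 1218 to 1289.9 CPM in WT, with Sox2 (0.72), Nanog (0.22) and Esrrb (0.28) called higher, Zfp42 (-0.20) called lower and Pou5f1 (-0.15) not called. The 6 spermatid markers had 1 count in all, with Prm1, Prm2, Tnp1, Tnp2 and Acrv1 at 0. The 5 markers of 2-cell-like cells summed to 0.314 to 0.985 CPM in libraries labelled DKO and 0.735 to 2.09 CPM in WT. The 4 primitive endoderm markers summed to 0.844 to 1.94 CPM in libraries labelled DKO and 1.98 to 3.12 CPM in WT. The 8 feeder fibroblast markers summed to 1.15 to 3.76 CPM in libraries labelled DKO and 2.64 to 4.40 CPM in WT. The part of such cells in the results was not tested, and in bulk libraries fewer cells of a type cannot be told apart from less RNA per cell.

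Of the 10 germline genes, 7 had enough counts to be tested. In the libraries labelled DKO, Stra8, Hormad1, Rpl10l, Stk31, Sycp3 and Dazl fell and Tex15 rose (edgeR quasi-likelihood test, Benjamini-Hochberg adjusted p under 0.05). That is 6 lower and 1 higher. Over all 11893 genes tested, 47.8% were called, 24.0% lower and 23.9% higher. Stra8, Hormad1, Rpl10l and Stk31 fell at least 2-fold, as did 6.05% of all genes tested, and Tex15 rose at least 2-fold, as did 4.14%. All libraries labelled DKO lay below all WT libraries for Stk31, Sycp3, Stra8, Hormad1 and Rpl10l, 5 of the 10 genes, and for 19.1% of all genes tested. They lay above all WT libraries for Tex15, and for 18.4% of all genes tested. The median log2 fold change of the 7 was -1.03, against 0.008 over all genes tested. Stra8 and Hormad1 entered the test through WT alone: 0 and 1 of the 5 libraries labelled DKO, but 4 of 4 WT libraries, reached the filter's 1.52 CPM, so the count and the median are no support for a direction of the set. The remaining 3 genes, Mael, Taf7l and Slc25a31, were too low in both groups. All values given per library are CPM on library sizes scaled by TMM.

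**Figure D2:**
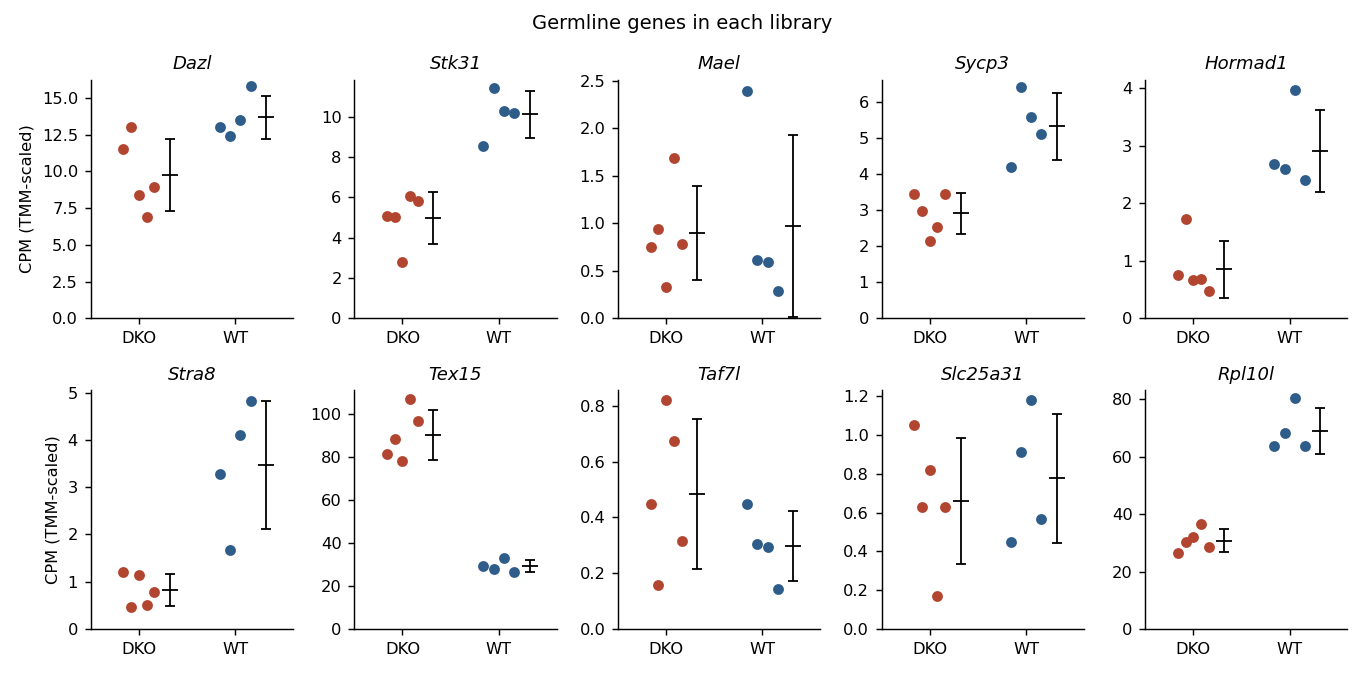
CPM (y axis, each panel with its own scale from 0) of the 10 germline genes in each of the 5 libraries labelled DKO (red) and 4 WT libraries (blue), with the mean and SD in black. Tex15 is higher in every library labelled DKO, Stk31, Sycp3, Hormad1, Stra8 and Rpl10l are lower in every one, and the groups overlap for Dazl, Mael, Taf7l and Slc25a31.

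Among the genes of RNA control, Stk31, which encodes a germ cell protein with Tudor and kinase domains, fell about 2-fold. The gene (ENSMUSG00000023403) spans chr6:49395604-49469501 on the plus strand of mm10. It stood at 5.08, 5.01, 2.79, 6.08 and 5.81 CPM in the libraries labelled DKO 1 to 5, against 8.53, 11.4, 10.3 and 10.2 CPM in WT 1 to 4. The groups did not overlap, and the library labelled DKO 3 was the lowest. Its mean was 4.95 ± 1.29 CPM in libraries labelled DKO and 10.1 ± 1.20 CPM in WT (SD, n = 5 and 4). On the log2 scale the change was -1.03 ± 0.19 (SE), with edgeR adjusted p = 2.4e-05.

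Dazl, an RNA-binding protein that sets germ cells on the path to gametes, showed the smallest fall of those called. It lies at chr17:50279395-50293636 on the minus strand (ENSMUSG00000010592). Levels were 11.5, 13.0, 8.37, 6.92 and 8.95 CPM in the libraries labelled DKO 1 to 5 and 13.0, 12.4, 13.5 and 15.8 CPM in WT 1 to 4. The groups overlapped, since the library labelled DKO 2 lay within the WT range, while DKO 3 to 5 lay well below it. The means were 9.75 ± 2.46 CPM in libraries labelled DKO and 13.7 ± 1.48 CPM in WT (log2 fold change -0.48 ± 0.16, edgeR adjusted p = 0.0113). Without WT 4, the highest library, the gene no longer passed (-0.41, edgeR adjusted p = 0.0533), whereas the 15 alternatives together spanned 0.00263 to 0.0533.

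Mael, a component of transposon silencing by piRNAs in the male germ line, was at the limit of detection (ENSMUSG00000040629, chr1:166201201-166238747, minus strand). It had 5, 6, 2, 10 and 5 counts in the libraries labelled DKO 1 to 5 and 16, 4, 4 and 2 counts in WT 1 to 4, so that WT 1 held most of the WT counts. In CPM this was 0.898 ± 0.496 in libraries labelled DKO and 0.969 ± 0.961 in WT, and no difference was detectable at this depth (exact permutation test, 2-sided, p = 0.905, BH 0.905 over the 3 genes tested so). The ratio of summed counts was 0.932, with an exact 95% interval of 0.527 to 1.65. That interval covers counting error at most, since summing over libraries leaves out the spread between them and no molecular identifiers are described. The difference in CPM was -0.071 over all libraries, but 0.404 without WT 1 and 0.0714 without DKO 3 (exact permutation p = 0.179 and 0.886), so the data give Mael no direction.

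Of the meiotic genes, Stra8, which retinoic acid induces and which drives entry into meiosis, had the largest fall (ENSMUSG00000029848, chr6:34920163-34939344, plus strand). It was measured at 1.2, 0.470, 1.15, 0.506 and 0.785 CPM in the libraries labelled DKO 1 to 5, from 3 to 8 counts each, against 3.29, 1.68, 4.11 and 4.83 CPM in WT 1 to 4, from 11 to 34 counts. All WT libraries lay above all of those labelled DKO, with WT 2 nearest to them. The mean was 0.821 ± 0.343 CPM in libraries labelled DKO and 3.48 ± 1.35 CPM in WT, and the log2 difference was -2.06 ± 0.36 (edgeR adjusted p = 1.5e-05).

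Hormad1, a HORMA-domain protein of unsynapsed meiotic chromosome axes (ENSMUSG00000028109, chr3:95559677-95587671, plus strand), fell to 0.748, 1.72, 0.657, 0.675 and 0.471 CPM in the libraries labelled DKO 1 to 5, against 2.69, 2.59, 3.97 and 2.41 CPM in WT 1 to 4. The groups did not overlap, and the library labelled DKO 2 stood apart from the other 4 of its group. Means of 0.855 ± 0.496 CPM in libraries labelled DKO and 2.92 ± 0.71 CPM in WT gave -1.74 ± 0.36 on the log2 scale (edgeR adjusted p = 0.000136). Of the 50-base words in the last 500 bases of its coding transcripts, 26.6% also occur in the pseudogenes Gm15529 and Gm7167, of which Gm15529 had 0 counts in libraries labelled DKO and 4 in WT.

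Sycp3, which builds the lateral element of the synaptonemal complex, was lower too (ENSMUSG00000020059, chr10:88459569-88473236, plus strand). Its levels were 3.44, 2.98, 2.13, 2.53 and 3.45 CPM in the libraries labelled DKO 1 to 5 and 4.19, 6.40, 5.58 and 5.11 CPM in WT 1 to 4. These values did not overlap, but the gap between the highest library labelled DKO and the lowest WT library was small. The means were 2.91 ± 0.576 CPM in libraries labelled DKO and 5.32 ± 0.925 CPM in WT, or -0.86 ± 0.23 on the log2 scale (edgeR adjusted p = 0.00226). This gene is uncertain, because 84.5% of the 50-base words at its 3' end lie in Chpt1, a phospholipid synthesis gene on the opposite strand, and whether counting used strand is not given in the sources used here. Chpt1 had 347 counts in libraries labelled DKO and 380 in WT (log2 fold change -0.35 ± 0.15, edgeR adjusted p = 0.0489).

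Tex15, needed in male mice for meiotic break repair and for the methylation of transposons, went the other way and rose about 3-fold (ENSMUSG00000009628). It reached 81.3, 88.5, 78.1, 107 and 96.9 CPM in the libraries labelled DKO 1 to 5, against 29.5, 28.1, 33.2 and 26.6 CPM in WT 1 to 4. The lowest library labelled DKO had more than 2 times the highest WT value. Means of 90.3 ± 11.7 CPM in libraries labelled DKO and 29.3 ± 2.85 CPM in WT gave 1.62 ± 0.09 on the log2 scale (edgeR adjusted p = 4.3e-16).

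The remaining genes are germline relatives of broadly expressed ones. Rpl10l is an intronless copy of the X-linked ribosomal protein gene Rpl10 that stands in for it when the X chromosome is silenced in meiosis. Its only exon fills chr12:66283379-66284401 on the minus strand (ENSMUSG00000060499). It fell to 26.3, 30.4, 32.2, 36.5 and 28.4 CPM in the libraries labelled DKO 1 to 5, against 63.7, 68.2, 80.4 and 63.6 CPM in WT 1 to 4. The highest library labelled DKO lay far below the lowest WT library. Means were 30.8 ± 3.86 CPM in libraries labelled DKO and 69.0 ± 7.89 CPM in WT (log2 fold change -1.17 ± 0.09, edgeR adjusted p = 4.9e-13). Of the 50-base words in the last 500 bases of Rpl10l, 6.65% occur unchanged in another gene, a pseudogene without a count in any library. Inexact matches, such as to Rpl10 and its copies, were not searched.

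Rpl10 itself, in the test through 4 libraries labelled DKO and 1 WT library, did not pass, at 2.11 ± 0.879 CPM in libraries labelled DKO and 1.25 ± 0.462 CPM in WT (log2 fold change 0.75 ± 0.37, edgeR adjusted p = 0.0978), although it passed in the absence of the library labelled DKO 3 (adjusted p = 0.0254, in a span of 0.0254 to 0.295 over its alternatives). It was the lowest in both groups of the 79 cytosolic ribosomal protein genes tested, whose median was 138 CPM in libraries labelled DKO and 127 CPM in WT. Of its 50-base words at the 3' end, 93.4% also occur in 15 other genes, Rpl10-ps3 and Rpl10-ps1 among them. The treatment of multi-mapped reads is not given in the sources used here, so the levels of Rpl10l and Rpl10 cannot be set against each other.

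Slc25a31 encodes an ADP/ATP carrier of male germ cell mitochondria (ENSMUSG00000069041, chr3:40708855-40726096, plus strand). It had 7, 4, 5, 1 and 4 counts in the libraries labelled DKO 1 to 5 and 3, 6, 8 and 4 counts in WT 1 to 4, with the groups overlapping (exact permutation p = 0.603, BH 0.905). The ratio of summed counts was 0.865 (exact 95% interval 0.450 to 1.67). Its broadly expressed relatives rose: Slc25a4 averaged 1286 ± 92.1 CPM in libraries labelled DKO and 528 ± 13.5 CPM in WT (log2 fold change 1.28, edgeR adjusted p = 3e-21). Slc25a5 averaged 328 ± 36.1 CPM in libraries labelled DKO and 250.5 ± 30.9 CPM in WT (0.39, edgeR adjusted p = 0.00594), with overlapping libraries, and 26.2% of its 3' words occur in pseudogenes.

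Taf7l, an X-linked form of the TFIID subunit TAF7 (ENSMUSG00000009596, chrX:134460118-134476490, minus strand), had the fewest counts, 3, 1, 5, 4 and 2 in the libraries labelled DKO 1 to 5 and 3, 2, 2 and 1 in WT 1 to 4. No difference was detectable at this depth (exact permutation p = 0.206, BH 0.619), with a ratio of summed counts of 1.62 and a wide interval of 0.646 to 4.42. Taf7, its broadly expressed relative, fell slightly, to 216 ± 14.0 CPM in libraries labelled DKO against 239 ± 11.7 CPM in WT (log2 fold change -0.15, edgeR adjusted p = 0.0231). That call was lost when any 1 of DKO 1, DKO 2, WT 1 or WT 3 was left out (adjusted p = 0.0664 to 0.0823).

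Tex15 and Rpl10l together held 79.2% of the counts of the 10 genes. The kit reads 3' ends, so CPM needs no division by length, and the order of levels in libraries labelled DKO was Tex15, Rpl10l, Dazl, Stk31 and Sycp3, with neighbours overlapping only between Stk31 and Sycp3. Mael, Hormad1, Stra8, Slc25a31 and Taf7l followed, all under 1 CPM on average and overlapping. In WT, Rpl10l stood above Tex15, followed by Dazl, Stk31, Sycp3, Stra8, Hormad1, Mael, Slc25a31 and Taf7l. There Sycp3 overlapped Stra8, Stra8 overlapped Hormad1, and Mael, Slc25a31 and Taf7l overlapped each other. The 10 genes were mostly low: in WT, Rpl10l lay above 75.2% of tested genes and Tex15 above 55.9%, but Dazl above 39.0% and Hormad1 above 11.7%.

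The genes lie on 8 chromosomes, and the surroundings of the genes were described beside the gene itself, because neighbouring genes moved together around some of them. Tex15 lies at chr8:33516738-33585582 on the plus strand. Of 26 other tested genes starting within 5 Mb, 22 were called higher in libraries labelled DKO and 1 lower, with a median log2 fold change of 0.69 (0.55 within 1 Mb and 0.44 within 10 Mb). Tex15, at 1.62, stood above 96.2% of them. Its rise thus accompanied one of its surroundings, and the part of the region in it was not tested.

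Stk31 and Stra8 both lie on chromosome 6. Around Stk31 the median was -0.22 over 40 genes, of which 20 were called lower and 0 higher, and 17.5% of them had a lower fold change than Stk31. Around Stra8 it was -0.12 over 45 genes, none of them with a lower fold change than Stra8. The medians around Hormad1 (-0.10, 76 genes), Dazl (0.02, 68 genes), Sycp3 (0.01, 42 genes) and Rpl10l (0.11, 31 genes) were near 0, though that of Hormad1 was -0.24 over the 45 genes within 1 Mb. Neither Hormad1 nor Rpl10l had a neighbour with a lower fold change, and 7.14% of the neighbours of Sycp3 did. Around the genes too low for the test, the median was 0.13 for Mael (43 genes, 15 higher and 5 lower), -0.04 for Taf7l (33 genes) and 0.14 for Slc25a31 (29 genes). Slc25a4 lies on chromosome 8 as well, where the median over 25 neighbours was 0.49.

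**Figure D3:**
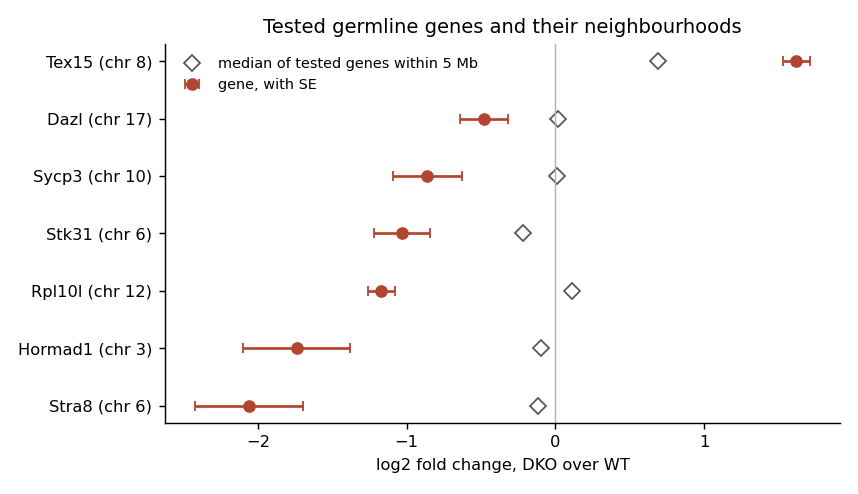
Log2 fold change, DKO over WT (x axis), of the 7 tested germline genes with its SE (red) and the median log2 fold change of other tested genes within 5 Mb (diamonds). Tex15 lies right of a neighbourhood that is itself at 0.69, and the 6 genes that fell lie left of neighbourhoods between -0.22 and 0.11.

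Other germline genes were taken from lists grouped by function. Of 18 genes of the piRNA pathway, which silences transposons in the germ line, 8 were tested, 5 fell and 1 rose in libraries labelled DKO, with a median log2 fold change of -1.49, beside 24.0% lower and 23.9% higher over all genes tested. Piwil1 and Piwil2 entered the test through WT, with 0 and 1 of the 5 libraries labelled DKO but 4 of 4 WT libraries at the filter's level, and Mov10l1 with 1 labelled DKO and 3 WT. Tdrd7, named after its counts were seen (39 in libraries labelled DKO, 7 in WT), was not tested, so the count and the median of those tested are no support for a direction of the list. Without any filter, the 18 genes summed to 211 to 229 CPM in libraries labelled DKO and 443 to 551 CPM in WT. Most of it came from Tex19.1, which fell, and Tdrd12, which rose. The difference in the sum follows Tex19.1, so the sum is no support for a direction of the list either. Tex19.1, which restrains retrotransposons in ESCs and germ cells, fell to 90.2 ± 9.59 CPM in libraries labelled DKO, against 362 ± 42.5 CPM in WT (-2.0, edgeR adjusted p = 6.3e-14). Fkbp6, a co-chaperone, averaged 7.13 ± 2.60 CPM in libraries labelled DKO and 30.3 ± 1.59 CPM in WT (-2.07). The PIWI genes Piwil2 (-2.23) and Piwil1 (-2.50), both in the test through WT, fell as well. Tdrd12, named as the only rise, was at 112 ± 12.4 CPM in libraries labelled DKO and 81.3 ± 2.88 CPM in WT (0.46, edgeR adjusted p = 1.2e-06). The helicase gene Ddx4 (0.13) and Tdrd5 (-0.51) did not pass (edgeR adjusted p = 0.686 and 0.315).

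Of 21 genes of the meiotic chromosome axis and recombination, 10 were tested, 6 fell and 1 rose in libraries labelled DKO, with a median of -0.77, again beside 24.0% lower and 23.9% higher over all genes. Meioc, Sycp1 and Hormad2, 3 of the 6 that fell, entered the test through WT, with 0, 0 and 2 of the 5 libraries labelled DKO but 4 of 4 WT libraries at the filter's level, so here too the count and the median are no support. All 21 genes summed to 78.8 to 99.6 CPM in libraries labelled DKO and 170.1 to 178 CPM in WT, most of it from Syce2 and Stag3. Both of these fell and most of the difference in the sum is theirs, so the sum is no support for a direction of the list either. Syce2, of the synaptonemal complex, fell to 42.6 ± 3.11 CPM in libraries labelled DKO, against 98.2 ± 4.35 CPM in WT (-1.2), and lies in a part of chromosome 8 where the median over 80 neighbours was -0.59. Stag3, a meiotic cohesin subunit, averaged 20 ± 3.11 CPM in libraries labelled DKO and 37.8 ± 5.01 CPM in WT (-0.91, edgeR adjusted p = 1e-08). Hormad2, the paralogue of Hormad1, was at 1.13 ± 0.833 CPM in libraries labelled DKO and 6.44 ± 0.787 CPM in WT (-2.48, edgeR adjusted p = 5.4e-07), and Meioc (-1.77), which prolongs the meiotic programme, fell too. Rec8, another meiotic cohesin subunit and the only rise, gave 5.57 ± 0.945 CPM in libraries labelled DKO and 3.43 ± 0.799 CPM in WT (0.70, edgeR adjusted p = 0.00977), a call that was lost without WT 2; with the filter of 5 CPM the gene was not tested. Syce1 (-0.51) and Tex11 (-0.63) did not pass (edgeR adjusted p = 0.0610 and 0.0752).

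Factors that silence germline genes were also described, together with enzymes that remove DNA methylation. Of 14 genes of PRC1.6, all tested, 6 fell and 2 rose, with a median of -0.07. Over all genes tested, 47.8% were called in either direction, 24.0% lower and 23.9% higher. The calls in both directions together were near that background. The share of falls lay above its background and that of rises below, a difference that was not tested. Pcgf6, the subunit that defines the complex, fell to 48.1 ± 3.59 CPM in libraries labelled DKO, against 65.7 ± 5.08 CPM in WT (-0.45, edgeR adjusted p = 6.3e-06). Wdr5 (-0.36) and Cbx3 (-0.32) fell, and Tfdp1 (0.60), the DP partner, and Rybp (0.70), named after its value was seen as the other rise, were higher. Tfdp1 lies in a part of chromosome 8 where the median over 39 neighbours was 0.46. On chromosome 6, Cbx3 had a median of -0.22 over 47 neighbours, 34.0% of which had a lower fold change, and Rybp had one of -0.34 over 14 neighbours within 5 Mb but 0.33 over 5 within 1 Mb. Mga (0.03) and Max (0.06) did not pass (edgeR adjusted p = 0.615 and 0.352).

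Of 14 genes of DNA methylation, its removal and histone H3K9 methylation, all tested, 10 fell and 0 rose, with a median of -0.22. The alternatives gave 8 to 10 called lower, and 1 was called higher without the library labelled DKO 3 or without WT 2. Over all genes tested, 24.0% were called lower and 23.9% higher. Dnmt3l, the cofactor of de novo methylation, fell by 2.38 on the log2 scale, and the maintenance genes Uhrf1 (-0.30) and Hells (-0.30) and the demethylating enzyme gene Tet3 (-1.18) fell too. Tet3 averaged 5.42 ± 1.37 CPM in libraries labelled DKO and 12.3 ± 1.74 CPM in WT, in a part of chromosome 6 where the median over 70 neighbours was -0.25. Dnmt1 (0.10) and Tet1 (-0.02) did not pass (edgeR adjusted p = 0.0858 and 0.734).

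**Figure D4:**
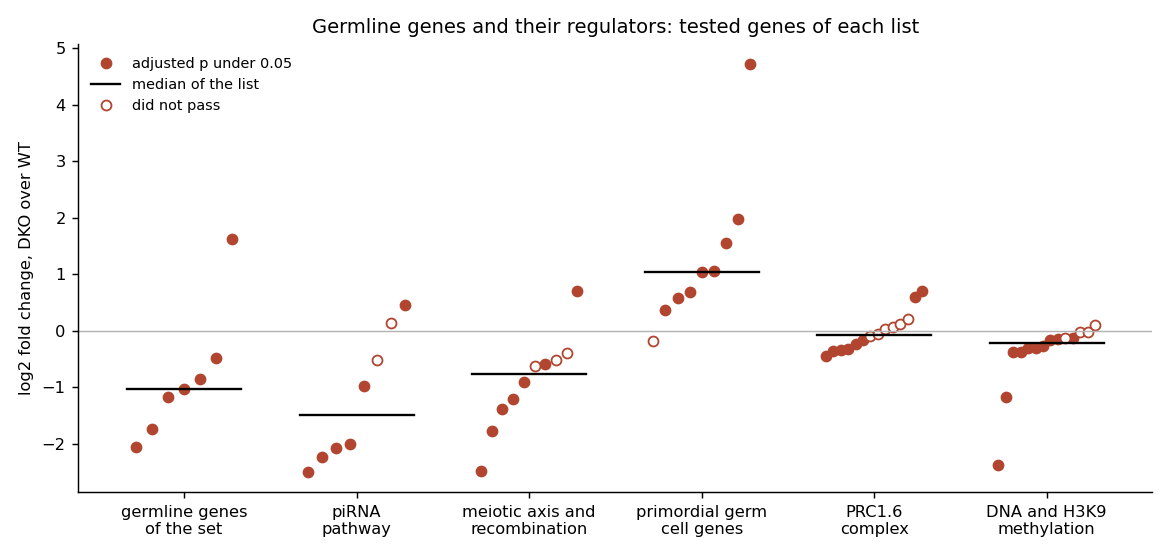
Log2 fold change, DKO over WT (y axis), of each tested gene in 6 lists, filled where the adjusted p was under 0.05 and open where it was not, with the median of each list as a line. Medians are -1.03 for the germline genes of the set, -1.49 for the piRNA pathway and -0.77 for the meiotic list, each over tested genes that include some present in the test through WT.

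The genes most like the more abundant members in pattern over the 9 libraries were named by Pearson's r of log2(CPM + 1). For Tex15 they were Fabp3 (r = 0.998), Cep112 (0.995) and Kdm5a (0.993), and 495 tested genes had r above 0.95. For Rpl10l they were Sfr1 (0.991), Ap1g1 (0.989) and Gas6 (0.988), and 342 had r above 0.95. These r were taken over both groups at once and are a description only.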

How the data were processed

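The authors deposited raw whole-number read counts over exons per Ensembl gene, 1 column for each of 9 libraries. Libraries were made from 600 ng of RNA with Lexogen's QuantSeq 3' forward kit, per the labels' protocols. The submitters' processing notes name build mm10 with DESeq2, featureCounts, STAR and cutadapt. Not given in the sources used here were their versions and roles, the annotation release, the use of strand and the handling of multi-mapped reads. Symbols and positions came from GENCODE mouse release 21 on that build, which matched 52403 of 52550 identifiers.

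Genes were kept by filterByExpr, scaled by TMM and tested with the robust quasi-likelihood test of edgeR 4.0.16 in R 4.3.3, DKO over WT on all 9 libraries, with Benjamini-Hochberg (BH) adjustment over 11893 genes and a threshold of 0.05. SE is the fold change divided by the root of F. The 3 genes under the filter were tested on CPM by exact permutation over 126 divisions, whose smallest p is 0.00794. Intervals of ratios are exact binomial ones on counts summed over each group, so they leave out the spread between libraries and may be too narrow. No 2 libraries agreed within sampling noise (chi-square per degree of freedom 2.31 to 5.40). Alternatives were RLE scaling, TMM off chromosomes 6, 8, X, Y and MT, no filter, 5 CPM in 4 libraries, DESeq2 1.42.0, a replicate block and leaving out each library.

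Members and lists were chosen with earlier results of these data known. Of each other list, the text names up to 4 that passed, by smallest adjusted p, and up to 2 that did not, by highest CPM; Klf2, Klf4, the members and the 3 genes most like Tex15 and Rpl10l by r are always named, and Tdrd12, Mov10l1, Tdrd7, Rec8, Sycp1, Rybp, Nanos3 and Dppa3 were named outside this rule, after their values were seen.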

Additional observations from a re-analysis of the deposited data

Results flagged for a closer look

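Among the 20 groups examined (10 genes in each genotype), 2 held a library far from the others, and chance flags about 1 in 20 groups. Mael in WT 1 stood at 2.39 CPM, from 16 counts, against 0.284 to 0.610 CPM in the other WT libraries. Hormad1 in the library labelled DKO 2 stood at 1.72 CPM, from 11 counts, against 0.471 to 0.748 CPM in the other libraries labelled DKO. Neither cause was tested.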

How the results depend on the processing

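Tex15, Stk31, Sycp3, Stra8, Hormad1 and Rpl10l kept their direction and their call in every alternative that could test them, 14 or 15 each. Dazl kept its direction in 15 and lost its call in 1, without WT 4. With the filter of 5 CPM in 4 libraries, 3 members were called lower instead of 6, because Sycp3, Stra8 and Hormad1 were no longer tested. Leaving out 1 library at a time gave 5 to 6 members called lower and 1 called higher. Over all genes the alternatives gave 2468 to 2918 called higher and 2475 to 3157 called lower. With RLE scaling, the median over genes of the shift in log2 fold change was -0.00385. Mael, Taf7l and Slc25a31 did not pass in the edgeR fit with no filter either (adjusted p = 0.910, 0.55 and 0.806). Of the piRNA genes 2 were called lower under the filter of 5 CPM and 6 at most, and of the meiotic genes 4 to 8; with no filter or with DESeq2, 2 genes of each list were called higher instead of 1, and under the filter of 5 CPM the meiotic list had 0.

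The labels do not say whether the replicate numbers shared by the groups pair the libraries. Same-numbered libraries correlated weakly, by 0.0141 to 0.0829, in their deviations from the group means. Libraries of unlike number correlated by -0.0802 to 0.0255, so a weak pairing remains possible. The fit with the replicate block left out the library labelled DKO 5, which has no partner. In that fit 6 members were called lower and 1 higher, and 2798 and 2699 over all genes, so no member changed its call. Every library correlated best with the one of its own number except DKO 2, which correlated best with WT 4 (0.0255), a hint from the data and not from the design.

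Depth limits Mael, Taf7l and Slc25a31, whose intervals span changes of 1.5-fold either way, and the size of the falls of Stra8 and Hormad1, which had 3 to 11 counts in each library labelled DKO.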

Other observations

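A further list held genes of primordial germ cells, the founders of the germ line. Of 9 genes, all tested, 8 rose and 0 fell in libraries labelled DKO, with a median log2 fold change of 1.04, beside 23.9% higher and 24.0% lower over all genes tested. Nanos3, one of the 8, entered the test through the libraries labelled DKO (4 of 5, against 0 of 4 WT libraries, at the filter's level). Its log2 fold change of 1.04 is also the median of the list, so the count and the median are no support for a direction of the list. The alternatives gave 7 to 8 of these genes called higher and 0 called lower. No difference between this list and the others was tested. Tfap2c, a transcription factor of primordial germ cells, averaged 260.3 ± 31.9 CPM in libraries labelled DKO and 66.3 ± 3.10 CPM in WT (1.97, edgeR adjusted p = 6.2e-17). Prdm1, the repressor that starts the germ cell fate, averaged 93.1 ± 13.9 CPM in libraries labelled DKO and 45.0 ± 5.43 CPM in WT (1.05, edgeR adjusted p = 1.3e-07). The interferon-induced membrane protein genes Ifitm3 (0.68) and Ifitm1 (1.55) rose as well, and Dnd1 (-0.19) did not pass (edgeR adjusted p = 0.367). Dppa3, a maternal and germ cell factor named after its value was seen as the largest rise, had 125 to 281 CPM in libraries labelled DKO and 6.71 to 11.8 CPM in WT (4.71, edgeR adjusted p = 1.2e-05), in a part of chromosome 6 where the median over 87 neighbours was 0.33. Several of these genes are also expressed by naive pluripotent cells.

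Of 7 further germline genes, 2 were tested. Tuba3a, a testis tubulin, fell to 6.86 ± 1.79 CPM in libraries labelled DKO, against 13.0 ± 1.77 CPM in WT (-0.92, edgeR adjusted p = 2.8e-05), on a part of chromosome 6 where the median over 82 neighbours was 0.36. Tex14, of the bridges between germ cells, did not pass (0.20, edgeR adjusted p = 0.229).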
